A study of Neurospora crassa with 11 samples.

Results

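Transcript levels of Neurospora crassa, a filamentous fungus that degrades plant cell walls, were compared between a strain with the A828V form of the transcription factor XLR-1 kept without a carbon source and a strain without XLR-1 kept on xylan. The 7 RNA-seq libraries of these conditions, 3 of A828V and 4 of the deletion, were chosen by their sample titles from the 11 libraries held here, and 8557 of the 9758 genes counted passed the filter on low counts and were tested. Both strains descend from FGSC2489 (OR74A), both have xlr-1 replaced by the hygromycin resistance marker HygR, and both spent 16 h on sucrose in Vogel's medium before transfer. The A828V strain carries xlr-1-A828V at the his-3 locus under the ccg-1 promoter, a promoter of a clock-controlled gene and not that of xlr-1, and its label gives mating type a. No mating type is labelled for the deletion strain. Strain and medium changed together, so the allele, the lack of XLR-1, xylan and starvation cannot be told apart as sources of any difference, and the sources used here do not give the time after transfer. Values of the wild type on xylan, 3 libraries, and of the A828V strain on sucrose, 1 library, are given beside some results. Both groups were also part of the fit.

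XLR-1 is a zinc cluster regulator that Neurospora needs to express genes for the breakdown of xylan, the main hemicellulose of grass and hardwood cell walls, and for the use of the xylose it releases. Endoxylanases cut the xylose backbone, beta-xylosidases free xylose from the fragments, and arabinofuranosidases, glucuronidases and esterases remove the side groups. Inside the cell, xylose reductase, xylitol dehydrogenase and xylulokinase turn xylose into a pentose phosphate, and the L-arabinose released from side chains joins that route through L-arabinitol and L-xylulose. The A828V change lies in XLR-1 itself and is known for xylanase gene expression without an inducer.

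The 7 libraries held 10317390 to 18507550 counts in genes. The A828V libraries resembled each other more closely (Pearson's r of log2 CPM 0.986 to 0.993 across genes) than the deletion libraries did (0.880 to 0.944). Deletion library 4 had 1571 genes at 0 counts, against 801 to 913 in the other deletion libraries. In deletion library 2, counts that name no gene made up 29.6% of all counts, and alignments that were not unique made up 22.7% of all counts. No label says whether the libraries of a group are separate cultures. The p-values rest on 1 spread per gene, shared by all groups and estimated over all 11 libraries of the fit. They cover no more than that spread, which may be technical.

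The engineered gene followed the labels. On xlr-1 (NCU06971, Supercontig_12.4:4706112-4709560 in the deposited tables), the A828V libraries had 109, 129 and 115 CPM (counts relative to the size of the library, scaled with TMM factors) and the deletion libraries had 11.8, 9.79, 3.28 and 5.62. The groups did not overlap, and reads were still assigned to the locus in all 4 deletion libraries. The log2 difference, A828V minus deletion as throughout, was 3.95 ± 0.39 (SE), with an adjusted p of 0.000309 in edgeR's quasi-likelihood test with Benjamini-Hochberg adjustment over all tested genes. The wild type on xylan lay at 112 to 158 CPM, a range that the A828V libraries overlapped. At the host locus his-3 (NCU03139), the difference of -0.80 ± 0.29 was not called (adjusted p = 0.113), although it passed without deletion library 2 (adjusted p = 0.0375). The ccg-1 gene itself (NCU03753), the source of the promoter, read 16612, 12498 and 17348 CPM in A828V against 7658, 12491, 4601 and 6297 CPM in the deletion, and its difference of 0.997 ± 0.384 was not called (adjusted p = 0.126, or 0.043 without deletion library 2).

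The mating-type genes went against a label. The strain labelled mat a had reads on matA-1 (NCU01958), the idiomorph gene of mat A strains, at 7.18, 6.22 and 6.69 CPM, 380 counts in all, and the 4 deletion libraries had 0 counts. Set against 3 counts over the 4 deletion libraries, the level was at least 105-fold higher in A828V, and the wild type read 5.52 to 12.5 CPM. The small matA-2 and matA-3 genes, with 6 and 13 counts over the A828V libraries and 0 over the deletion libraries, were too low to test. The opposite pattern held for mfa-1 (NCU16992), which codes for the pheromone of mat a cells: 12.3, 12.4 and 12.1 CPM in A828V against 121, 49.0, 209.9 and 220.2 CPM in the deletion, a difference of -3.61 ± 0.48 (adjusted p = 0.00215). The pheromone receptor gene pre-1 was higher in A828V (2.04 ± 0.43, adjusted p = 0.0199), a call lost without any one of the 3 A828V libraries or deletion library 3 (adjusted p 0.0624 to 0.0902). The pheromone gene ccg-4 was not called (3.57 ± 1.51, adjusted p = 0.156). In the authors' deposited table for strains without carbon, A828V minus wild type was -7.05 for ccg-4, -2.36 for matA-1, -2.29 for pre-1 and -0.03 for mfa-1. The weak matA-2 and matA-3 genes stood at 1.025 and 0.807 there. The A828V and deletion libraries thus differed in mating-type transcripts as well as in xlr-1 and medium, and the part of this in the other results was not tested.

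Across all genes, 744 of 8557 (8.69%) passed an adjusted p under 0.05, 419 (4.90%) higher and 325 (3.80%) lower in A828V without carbon. The median log2 difference of all tested genes was -0.08. Among the called genes, 175 were over 4-fold higher and 92 over 4-fold lower, and 48 and 18 were over 16-fold apart. In 741 of the 744 the A828V and deletion libraries did not overlap, against 29.6% of all tested genes. The numbers of calls depended on the libraries in the fit: without A828V library 1, 2 or 3 they were 160, 139 and 140 higher and 53, 71 and 46 lower, and without deletion library 3 they were 185 and 123. Without deletion library 2, 571 genes were higher and 561 lower. Of the calls, 122 higher and 46 lower genes kept theirs in each of the 7 fits that left out 1 library.

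**Figure D1:**
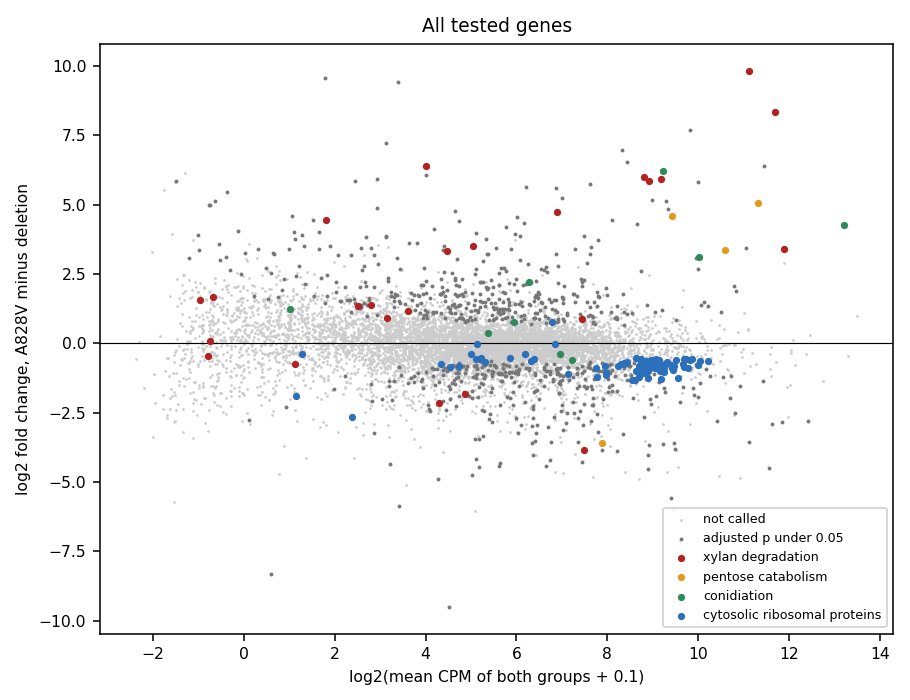
Log2 difference between A828V without carbon and the deletion on xylan (vertical axis) against log2 of the mean CPM of both groups plus 0.1 (horizontal axis) for the 8557 tested genes, 1 point per gene. Dark grey points are the 744 genes with an adjusted p under 0.05. Red xylan degradation genes reach up to 9.83 and orange pentose genes up to 5.055, while the blue cytosolic ribosomal protein genes lie mostly just below 0.

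The highest differences in any of the gene lists were those of 2 endoxylanase genes, apart from matA-1. The xylanase gene gh10-2 (NCU08189, Supercontig_12.3:4598536-4599913), a family 10 endoxylanase, read 6049, 6805 and 6981 CPM in A828V without carbon and 16.6, 26.8, 18.1 and 20.5 CPM in the deletion on xylan. Its lowest A828V library stood far above the highest deletion library, and the difference was 8.33 ± 0.39 (adjusted p = 5.67e-06). The family 11 xylanase gene gh11-2 (NCU07225, Supercontig_12.5:6198659-6199980) read 4251, 3833 and 5197 CPM against 2.50, 6.17, 5.30 and 5.43 CPM, a difference of 9.83 ± 1.03 (adjusted p = 0.000432), the highest among genes at 10 CPM or more in 1 group. Per transcript length, gh10-2 stood at 6174 ± 540 and gh11-2 at 4703 ± 841 FPKM in A828V (SD, n = 3), and at 16.5 ± 5.97 and 4.15 ± 1.76 FPKM in the deletion (SD, n = 4).

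Of the 6 xylanases, these 2 were called higher, against 4.90% of all tested genes, and the other 4 were not. The list median was 3.06. The 4 uncalled genes were weakly expressed in both strains. In A828V, gh11-1 read 9.23, 11.5 and 8.95 CPM against 5.64, 3.08, 3.28 and 3.30 CPM (1.37 ± 0.60, adjusted p = 0.169), and gh10-1 read 7.18, 4.93 and 7.57 CPM against 1.05, 0.0907, 0 and 0 CPM (4.44 ± 1.68, adjusted p = 0.122). In the wild type on xylan gh10-1 varied between 4.06 and 412 CPM. Both gh10-4 (1.67 ± 0.67, adjusted p = 0.135) and gh10-3 (-0.75 ± 0.62, adjusted p = 0.449) stayed under 5 CPM in all 7 libraries. In a fit on the 7 libraries alone gh11-1 and gh10-1 passed, as did gh10-4 in a fit on unfiltered FPKM.

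All 4 beta-xylosidase genes were higher in A828V, against 4.90% of all tested genes, with a median of 5.29. Each kept its call in all 16 alternative fits. NCU09652 read 836, 849.6 and 961 CPM against 14.4, 16.4, 15.4 and 9.50 CPM (5.98 ± 0.35, adjusted p = 1.39e-05). NCU01900, annotated as a xylosidase and arabinosidase, rose by a similar factor (5.85 ± 0.43, adjusted p = 7.42e-05). The 2 family 3 genes were lower in level: gh3-8 read 205, 214 and 268 CPM against 3.59 to 14.3 CPM (4.74 ± 0.46, adjusted p = 0.000309), and gh3-7 read 56.5, 47.0 and 78.3 CPM against 2.62 to 7.82 CPM (3.51 ± 0.48, adjusted p = 0.00225). For these 2 genes the A828V libraries also lay below every wild-type library on xylan, which read 509 to 1175 CPM for gh3-8 and 347 to 1109 CPM for gh3-7.

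**Figure D2:**
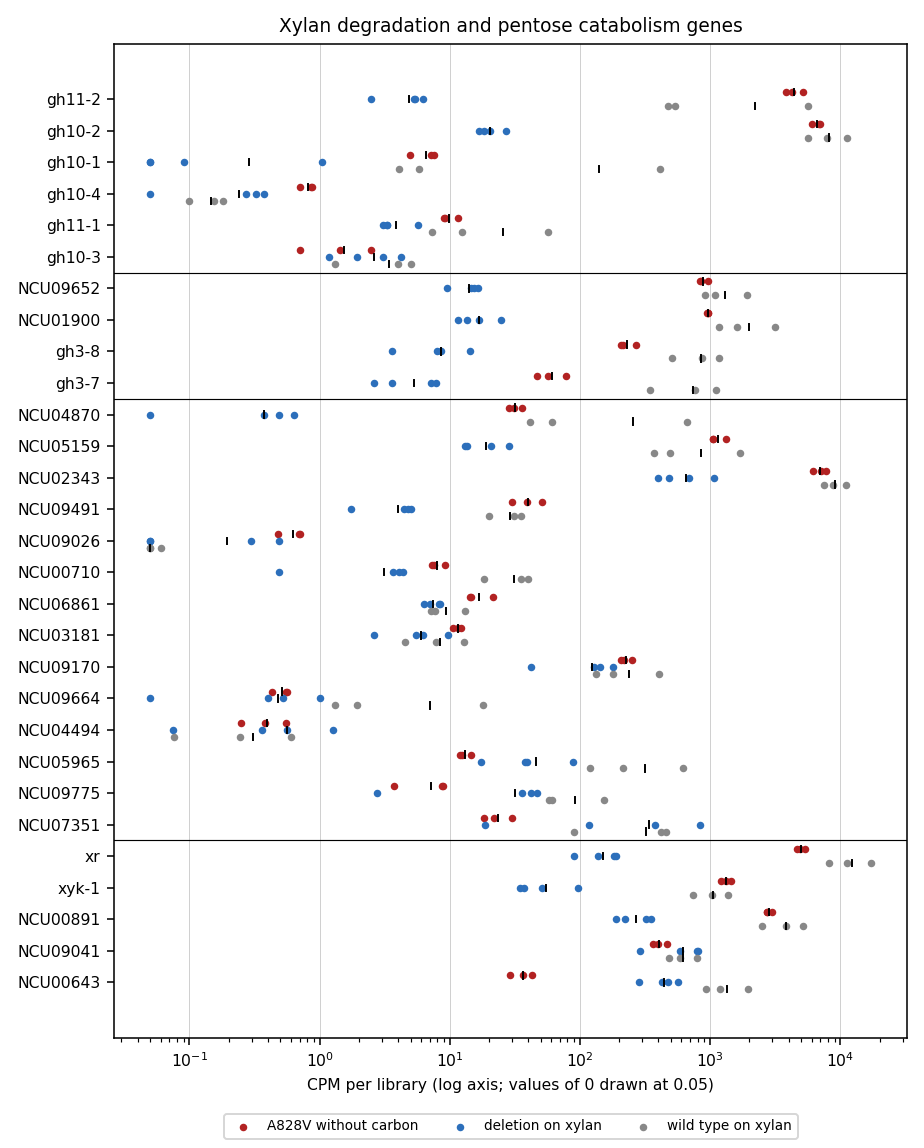
CPM of the 24 xylan degradation genes and 5 pentose catabolism genes in each library on a log axis, 1 point per library and a black tick at each group mean, with values of 0 drawn at 0.05. Lines separate xylanases, beta-xylosidases, side-chain enzymes and pentose catabolism, each sorted by the difference; the red A828V points stand to the right of the blue deletion points in the called genes but to their left for NCU00643, the L-arabinitol 4-dehydrogenase gene.

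The side-chain enzymes split. Of 14 genes, 5 were higher, against 4.90% of all tested genes, and 9 were not called. The list median was 1.04. The alpha-L-arabinofuranosidase gene NCU02343, which removes arabinose from xylan, read 7033, 6174 and 7728 CPM in A828V against 395, 1059.8, 684 and 486 CPM (3.41 ± 0.37, adjusted p = 0.00056). The acetylxylan esterase gene NCU05159, which removes acetyl groups, read 1058, 1058 and 1309.8 CPM against 20.7, 28.3, 13.6 and 12.99 CPM (5.92 ± 0.58, adjusted p = 0.000309). A second acetylxylan esterase gene, NCU04870, read 31.0, 28.7 and 35.8 CPM against 0, 0.635, 0.373 and 0.485 CPM (6.41 ± 1.09, adjusted p = 0.0077), a call lost with voom group weights. For all 3 genes every A828V library lay above every deletion library.

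The feruloyl esterase gene NCU09491, which cuts ferulic acid from arabinose side groups, was also higher (3.32 ± 0.38, adjusted p = 0.000831). The family 43 gene NCU06861 was called at 1.16 ± 0.29 (adjusted p = 0.036), a call lost without any one of the A828V libraries or deletion library 1, 3 or 4 (adjusted p 0.0541 to 0.183). Several uncalled members pointed the other way. The alpha-glucuronidase gene NCU07351, for removal of glucuronic acid, read 18.2, 30.0 and 22.0 CPM in A828V, while the deletion libraries ran from 18.5 over 116 and 378 to 840.3 CPM (-3.85 ± 1.11, adjusted p = 0.0581). Without deletion library 1 or 2 it passed (adjusted p 0.0134 to 0.0427). The arabinosidase genes NCU05965 (-1.81 ± 0.62, adjusted p = 0.0962) and NCU09775 (-2.16 ± 0.79, adjusted p = 0.112, or 0.0117 without deletion library 1) also had negative differences. Another arabinosidase gene, NCU09170, read 206 CPM or more in each A828V library against 41.7 to 178 CPM and was not called (0.87 ± 0.48, adjusted p = 0.252). The acetylxylan esterase genes NCU00710 (1.35 ± 0.54, adjusted p = 0.14) and NCU03181 (0.92 ± 0.45, adjusted p = 0.202) and the weakly expressed feruloyl esterase gene NCU09026 (1.56 ± 0.91, adjusted p = 0.282) were not called either, and 2 further acetylxylan esterase genes stayed under 1.3 CPM in all 7 libraries.

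Taken as 1 group of 24 xylan degradation genes, 11 were called higher, against 4.90% of all tested genes, and 13 were not called. In 17, every A828V library lay above every deletion library, against 16.6% of all tested genes. The group's median difference was 1.62. Summed over the 24 genes, the A828V libraries held 20313 to 23927 CPM, the deletion libraries 678 to 1642 CPM and the wild type on xylan 17753 to 36801 CPM. The A828V sum without any carbon source thus fell inside the range of the wild-type libraries on xylan, and the deletion sum on xylan lay below the single A828V library on sucrose (4408 CPM). Leaving out any one library kept 10 of the 11 calls.

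The pentose pathway divided between its xylose and arabinose steps. Xylose reductase, xr (NCU08384), the entry step that makes xylitol, read 4869, 4623 and 5361 CPM in A828V against 89.2, 188, 181 and 138 CPM in the deletion (5.06 ± 0.39, adjusted p = 9.22e-05). Xylitol dehydrogenase, NCU00891, read 2960.5, 2722 and 2739.6 CPM against 319.9, 190.1, 352 and 223 CPM (3.37 ± 0.33, adjusted p = 0.000309), and D-xylulose kinase, xyk-1 (NCU11353), read 1446, 1209.8 and 1331 CPM against 34.3, 37.0, 51.4 and 96.0 CPM (4.60 ± 0.41, adjusted p = 0.0002). All 3 enzymes of the xylose route were thus higher in starved A828V than in the deletion on xylan, with no overlap between libraries.

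L-arabinitol 4-dehydrogenase, NCU00643, which serves the arabinose branch, went the other way. It read 29.2, 42.7 and 36.7 CPM in A828V and 568, 283, 472 and 427 CPM in the deletion, a difference of -3.59 ± 0.37 (adjusted p = 0.000399). The A828V library on sucrose read 28.7 CPM and the wild type on xylan 924 to 1943 CPM, so this gene was high in both strains on xylan. L-xylulose reductase, NCU09041, the next step of the branch, was not called (-0.61 ± 0.35, adjusted p = 0.28). The 4 calls in this list kept their direction and their side of the threshold in all 16 alternative fits. In the authors' deposited table for the wild type, NCU00643 was higher on xylan than without carbon by 5.17 on the log2 scale, and in their table for the strains without carbon A828V and wild type differed by 0.03.

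No gene of the pentose phosphate pathway, which takes up xylulose 5-phosphate, was called among 10 tested, with a median of -0.05. Only 1 of them had an unadjusted p under 0.05 in edgeR, DESeq2 called 1 lower, limma on log2(FPKM + 1) called 1 higher and voom with group weights called none. Transketolase, NCU01328, read 1173, 1332 and 1268 CPM against 876, 535, 638 and 805 CPM (0.82 ± 0.39, adjusted p = 0.196). Glucose-6-phosphate dehydrogenase, NCU09111, was among 4 genes whose 95% interval lay within 2-fold in both directions (-0.71 to 0.27).

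Sugar transporters changed in both directions. Of 28 tested, 6 were higher (against 4.90% of all tested genes), 8 (28.6%, against 3.80%) were lower and 14 were not called, with a median of -0.61. Without any one of the A828V libraries 2 were higher and 3 or 4 lower, and without deletion library 3 these were 2 and 7. The transporter gene cdt-2 (NCU08114, Supercontig_12.1:318873-321079), known for carrying cellodextrins and xylodextrins, read 5298, 5444 and 5899 CPM in A828V and 26.0, 107, 93.2 and 36.4 CPM in the deletion (6.40 ± 0.55, adjusted p = 0.000159). Its A828V libraries also exceeded the wild type on xylan (3138 to 4721 CPM). NCU08152, annotated as a high affinity glucose transporter, read 114, 82.9 and 126 CPM against 2.18, 12.6, 9.55 and 16.8 CPM (3.39 ± 0.72, adjusted p = 0.0196), and read 0.50 to 5.44 CPM in the wild type on xylan. That call was lost without any one of the A828V libraries or deletion library 3 (adjusted p 0.0582 to 0.0755).

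Called transporters that were lower were well expressed in the deletion on xylan. NCU05897, annotated as an L-fucose permease, read 214, 282 and 278 CPM in A828V against 6971, 2312, 7084 and 6946 CPM (-4.50 ± 0.46, adjusted p = 0.000399). NCU04963, a high-affinity glucose transporter by annotation, read 351, 371 and 320.3 CPM against 2659.9, 4756, 4184 and 4843 CPM (-3.56 ± 0.40, adjusted p = 0.000684), and the sugar transporter gene NCU02188 read 279.8, 371 and 385 CPM against 2442, 2726, 2902 and 1532 CPM (-2.80 ± 0.34, adjusted p = 0.00124). All 3 were high in the wild type on xylan too, at 4345 to 5808 CPM for NCU05897, 2166 to 5697 CPM for NCU04963 and 2233 to 4199 CPM for NCU02188.

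The monosaccharide transporter gene hgt-1 (NCU10021) read 789, 669 and 798 CPM against 12854, 3226, 2889 and 3479 CPM (-2.90 ± 0.58, adjusted p = 0.0161), and NCU05627, annotated as ght1, read 63.5, 189 and 70.1 CPM against 3115, 585, 764 and 760.0 CPM (-3.60 ± 0.75, adjusted p = 0.019). Deletion library 1 was the highest in both. The call of hgt-1 was lost without any one of the A828V libraries (adjusted p 0.078 to 0.081), and that of NCU05627 without A828V library 1 or 3 (adjusted p 0.0959 to 0.0993). Larger negative differences of 2 transporters, chosen after their values were seen, were not called. NCU06384 (-5.101 ± 2.005, adjusted p = 0.131) had 84.7 CPM in deletion library 1 and under 3 CPM in the other 6 libraries, and differed by -1.65 without that library. NCU01633, annotated as a hexose transporter, read 8.03, 118 and 20.5 CPM in A828V against 223 to 2141 CPM (-4.64 ± 1.68, adjusted p = 0.109), and passed with DESeq2 and on the 7 libraries alone. Among uncalled transporters, the intervals of NCU00821 (-0.35 to 0.90), NCU01813 (-0.14 to 0.91) and NCU09321 (0.12 to 0.98) lay within 2-fold in both directions.

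**Figure D3:**
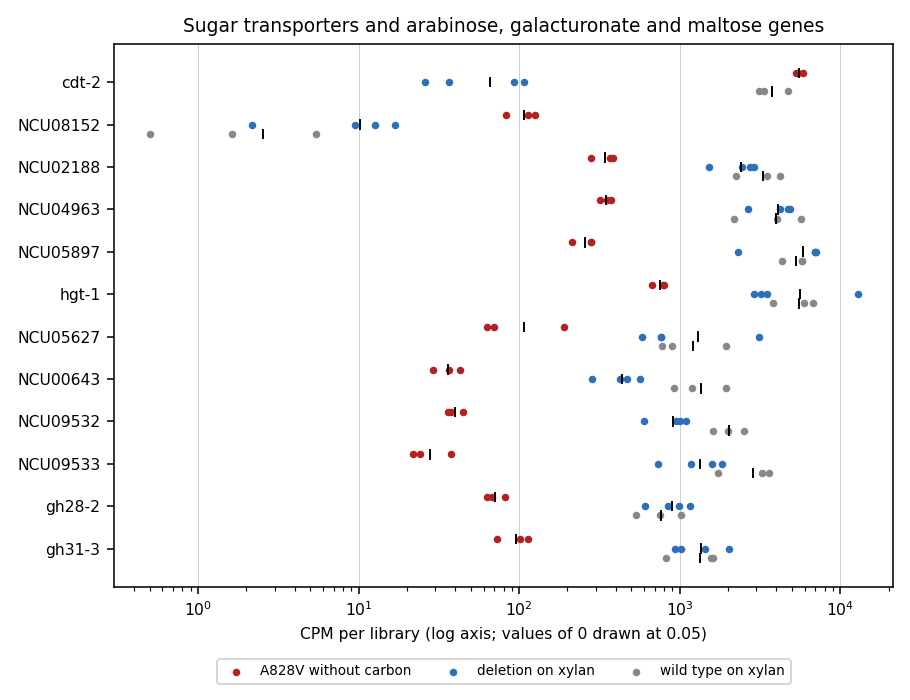
CPM in each library on a log axis for 7 sugar transporter genes and 5 genes of arabinose, galacturonate, pectin and maltose use, 1 point per library with a black tick at the group mean. For cdt-2 the A828V points lie just right of the wild type and far right of the deletion. For NCU05897, NCU09532 and NCU09533 the deletion points lie with or near the wild type on xylan and far right of A828V. For NCU00643 the deletion points lie far right of A828V but left of every wild-type point.

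Some genes for other wall sugars were lower in A828V. Of 9 pectin and galacturonate genes, 2 (22.2%, against 3.80% of all tested genes) were lower and 7 were not called, with a median of -1.07. The aldolase gene NCU09532, which splits the galacturonate intermediate L-threo-3-deoxy-hexulosonate, read 36.0, 45.0 and 37.7 CPM against 954, 999, 1087 and 596 CPM (-4.52 ± 0.33, adjusted p = 7.42e-05). Its neighbour NCU09533, an oxidoreductase gene by annotation that was in no list, read 21.8, 37.6 and 24.1 CPM against 1839, 1178, 1596 and 730.1 CPM (-5.59 ± 0.49, adjusted p = 0.000178). The exopolygalacturonase gene gh28-2, for pectin breakdown, fell as well (-3.67 ± 0.34, adjusted p = 0.000232). The pectate lyase gene NCU06326 was not called (-2.29 ± 0.71, adjusted p = 0.0713), with deletion library 1 at 15.1 CPM and the other deletion libraries at 134 to 215 CPM, and it passed without that library (adjusted p = 0.00306). The endo-arabinase gene NCU00852, also chosen after its values were seen, was not called either (adjusted p = 0.0669, or 0.0439 on unfiltered FPKM), with 0.151, 0.718 and 0.313 CPM in A828V and 0 counts in the deletion libraries. Of 7 starch genes, 1 (14.3%, against 3.80% of all tested genes) was lower and 6 were not called. This gene, the alpha-glucosidase gene gh31-3, read 101, 72.8 and 113 CPM against 2024, 935, 1446 and 1015 CPM (-3.83 ± 0.41, adjusted p = 0.000474).

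Of 16 tested cellulase and beta-glucosidase genes, 1 was higher and 15 were not called, with a median of 0.19. Among all tested genes 4.90% were higher, so 1 call in a list this small does not set the list apart. The beta-glucosidase gene gh3-1 read 32.7, 40.4 and 43.8 CPM against 10.6, 9.88, 14.7 and 10.2 CPM (1.78 ± 0.31, adjusted p = 0.00854). Of 12 lytic polysaccharide monooxygenase genes, which act on cellulose by oxidation, 1 was likewise higher and 11 were not called. This gene, gh61-6, read 63.8, 74.9 and 55.9 CPM against 20.2, 21.7, 9.03 and 13.1 CPM (2.02 ± 0.31, adjusted p = 0.00429). The abundant beta-glucosidase gene gh3-3 was not called (-1.84 ± 0.75, adjusted p = 0.143), with deletion library 1 at 1545 CPM and the other 3 at 217 to 427 CPM.

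Among regulators of these genes, 1 passed the test. Of all tested genes 4.90% were higher, so 1 call in a list this small does not set the list apart. Of 6 tested, clr-1, a regulator of cellulase genes, was called at 279, 260.4 and 256 CPM against 139.6, 176, 118 and 90.8 CPM (1.01 ± 0.27, adjusted p = 0.0449), a call lost without any one of the A828V libraries or deletion library 1, 3 or 4 (adjusted p 0.055 to 0.161). Its partner clr-2 was not called (-0.30 ± 0.45, adjusted p = 0.698), nor were vib-1 (0.41 ± 0.31, adjusted p = 0.404), the carbon catabolite repressor gene cre-1 (-0.94 ± 0.54, adjusted p = 0.276) or the starch regulator gene col-26 (-0.998 ± 0.430, adjusted p = 0.163). The last 2 passed without deletion library 2 (adjusted p 0.0424 for cre-1 and 0.0251 for col-26).

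**Figure D4:**
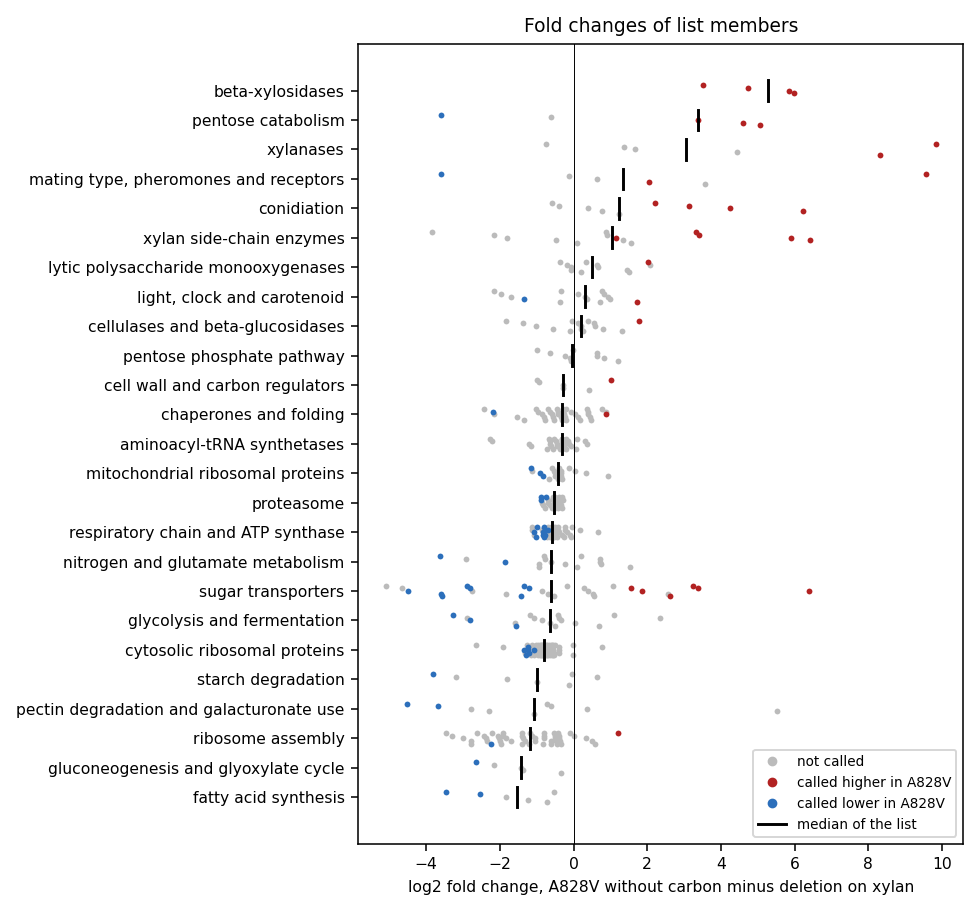
Log2 difference, A828V without carbon minus deletion on xylan, of each tested member of 25 gene lists, 1 point per gene, with a black bar at each list's median; lists run from the highest median at the top to the lowest at the bottom. Red points were called higher and blue points lower at an adjusted p under 0.05; the beta-xylosidase median lies at 5.29 and the fatty acid synthesis median at -1.54.

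Several conidiation genes, which are used when Neurospora forms asexual spores, were higher in A828V without carbon. Of 9 tested, 4 were higher, against 4.90% of all tested genes, and 5 were not called, with a median of 1.23. The hydrophobin gene eas (NCU08457), whose product coats conidia, was the most abundant called gene at 16713, 17661 and 19832 CPM against 147, 1709.9, 1080.3 and 857 CPM (4.25 ± 0.98, adjusted p = 0.0261). That call was lost without any one of the A828V libraries or deletion library 3 or 4 (adjusted p 0.0569 to 0.0849). The conidiation genes con-6 (1013, 1215 and 1327 CPM against 33.5, 12.97, 3.88 and 13.3 CPM) and con-8 (1918, 1613 and 2046 CPM against 147, 232, 200.5 and 272 CPM) differed by 6.22 ± 0.64 (adjusted p = 0.000403) and 3.13 ± 0.39 (adjusted p = 0.00132). Not all markers moved: con-10 and con-13 were not called, and con-13 read under 4 CPM in all 7 libraries. Summed over the 9 genes, A828V held 20100 to 23650 CPM and the deletion 756 to 2299 CPM. In these bulk samples more conidiating cells and more RNA per cell cannot be told apart, and the part of conidiation in the other results was not tested.

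Of 15 light, clock and carotenoid genes, 1 was higher and 1 (6.67%) was lower, against 4.90% and 3.80% of all tested genes. The other 13 were not called, and the list median was 0.30. Calls this few do not set the list apart. The carotenoid gene al-3, for geranylgeranyl diphosphate synthase, read 340.2, 342 and 337 CPM against 143, 108, 91.8 and 71.6 CPM (1.71 ± 0.23, adjusted p = 0.00225). The clock-controlled gene ccg-6 read 1842, 1271 and 1556 CPM against 3829, 3684, 3815 and 4558 CPM (-1.35 ± 0.25, adjusted p = 0.0117), a call lost without A828V library 2 or 3 (adjusted p 0.0727 to 0.0738). The clock gene frq and the photoreceptor genes wc-1, wc-2 and vvd were not called.

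Lists of growth and energy genes had medians below that of all genes, and most of their members were not called. Of 87 cytosolic ribosomal protein genes, 6 (6.90%, against 3.80% of all tested genes) were lower and 81 were not called, with a median of -0.81, and the groups did not overlap in 34 (39.1%), of which 33 were lower in A828V, against 29.6% of all tested genes. The 6 calls were not stable: DESeq2 called 36 lower, while 0 were called lower without any one A828V library or deletion library 3, with replicate numbers as a block or on log2(FPKM + 0.1), and 22 without deletion library 1. Of 48 respiratory chain and ATP synthase genes, 10 (20.8%) were lower and 38 were not called (median -0.58), with no overlap in 26 (54.2%), all lower in A828V. The 29.6% of all tested genes without overlap holds both directions, and in 16.6% every A828V library lay above every deletion library. Of 27 proteasome genes, 3 (11.1%) were lower and 24 were not called (median -0.53), with no overlap in 17 (63.0%), all lower in A828V. Of 19 mitochondrial ribosomal protein genes, 3 (15.8%) were lower and 16 were not called (median -0.42), with no overlap in 6 (31.6%), again all lower. In each of these 3 lists, and among glycolysis genes, 0 calls were left without any one of the A828V libraries or deletion library 3; without deletion library 1, 5 respiratory chain genes were called lower. Of 51 ribosome assembly genes, 1 was higher and 1 (1.96%) lower, against 4.90% and 3.80% of all tested genes, with a median of -1.18. The groups did not overlap in 7 of them (13.7%), fewer than the 29.6% of all tested genes. Summed over the 51, A828V held 700 to 778 CPM and the deletion 550 to 2820 CPM. No aminoacyl-tRNA synthetase gene was called among 33 in edgeR, with a median of -0.32. Of these genes, 4 had an unadjusted p under 0.05, and DESeq2 called 3 and voom with group weights 1 lower. The groups did not overlap in 4 of the 33 (12.1%), also under the 29.6% of all tested genes. Since the FPKM scale moved the median of all genes by over 0.1, to 0.16, these small list medians are read relative to the -0.08 of all genes.

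In central carbon metabolism, 3 of 17 glycolysis and fermentation genes (17.6%, against 3.80% of all tested genes) were lower and 14 were not called (median -0.65). The alcohol dehydrogenase gene adh-1 (NCU01754), for ethanol formation, read 1009.8, 1887 and 1205 CPM against 3402, 8189.8, 12335 and 14533 CPM (-2.81 ± 0.70, adjusted p = 0.0351). Its call was lost without any one of the A828V libraries or deletion library 3 or 4 (adjusted p 0.0553 to 0.154). Of 6 fatty acid synthesis genes, 2 (33.3%, against 3.80% of all tested genes) were lower, those of both fatty acid synthase subunits. The gene cel-1 read 5.02, 6.70 and 5.19 CPM against 62.6, 40.1, 82.8 and 63.8 CPM (-3.46 ± 0.55, adjusted p = 0.005). Its partner cel-2 differed by -2.53 ± 0.55 (adjusted p = 0.0212), a call lost without any one of the A828V libraries or deletion library 3 (adjusted p 0.0599 to 0.111). Of 5 gluconeogenesis and glyoxylate genes, only acu-5, for acetyl-CoA synthetase, was called (-2.64 ± 0.51, adjusted p = 0.0136), and not without A828V library 1 or 3 (adjusted p 0.0779 to 0.079).

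In nitrogen metabolism, 2 of 15 genes (13.3%, against 3.80% of all tested genes) were lower and 13 were not called (median -0.60). Glutamine synthetase, gln-2, read 413, 394 and 432 CPM against 808, 941, 1854 and 2445 CPM (-1.87 ± 0.43, adjusted p = 0.0258), a call lost without any one of the A828V libraries or deletion library 3 (adjusted p 0.0703 to 0.116). Of 38 tested chaperone and folding genes, 1 was higher and 1 (2.63%) lower, against 4.90% and 3.80% of all tested genes, with a median of -0.32. The plasma membrane proton pump gene pma-1, in no list, read 833, 1256 and 908 CPM against 3709, 1535, 3694 and 2603 CPM (-1.53 ± 0.41, adjusted p = 0.0478) and lost its call without any one of the A828V libraries or deletion library 1, 3 or 4 (adjusted p 0.057 to 0.198).

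Several genes outside the lists stood among the 15 largest differences of either direction. NCU06138, annotated as a quinate permease, read 1851, 1611 and 1961 CPM in A828V against 7.50, 13.1, 5.30 and 9.21 CPM (7.69 ± 0.43, adjusted p = 1.07e-05). NCU00292, annotated as a cholinesterase, read 641, 541 and 718 CPM against 4.51, 7.16, 2.84 and 5.52 CPM (6.98 ± 0.42, adjusted p = 1.51e-05). Both were also high in the wild type on xylan, at 1394 to 2720.3 and 972 to 2001 CPM. NCU07224, a monooxygenase gene beside gh11-2, read 25.8, 14.9 and 22.0 CPM, and a single count was found over the 4 deletion libraries, a ratio of 977 and a 95% counting interval from 175 to 38610. NCU07510, NCU16529 and NCU07751, without known function in the annotation, were 7.21 ± 0.86, 5.94 ± 0.61 and 5.87 ± 0.80 higher on the log2 scale.

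Other genes with large rises read low in the wild type on xylan. The gene app (NCU04533), named for an abundant perithecial protein of the sexual fruiting body, read 471, 1204 and 387 CPM against 1.21, 10.7, 3.36 and 14.6 CPM (6.53 ± 1.11, adjusted p = 0.00768), with 1.30 to 17.5 CPM in the wild type. NCU03011, without known function, read 21.7, 42.5 and 30.5 CPM against 1.45, 0.181, 0.0746 and 0.0969 CPM (6.08 ± 0.82, adjusted p = 0.00225). Among the abundant genes, the metalloprotease gene NCU07200 read 4030.4, 3841 and 3824 CPM against 70.0, 457, 428 and 492 CPM (3.43 ± 0.79, adjusted p = 0.0267). NCU16460 (2.08 ± 0.42, adjusted p = 0.0161) and NCU08847 (1.87 ± 0.42, adjusted p = 0.0246) were abundant and higher too. The last 3 calls were lost without any one of the A828V libraries or deletion library 3 (adjusted p 0.051 to 0.0907).

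The largest fall was in NCU09968, a gene without known function (Supercontig_12.6:309546-315476). It read 0.1004, 0 and 0.0626 CPM in A828V, 3 counts in all, and 55.1, 37.4, 39.2 and 48.9 CPM in the deletion, a ratio of 855 and a 95% counting interval from 292 to 4148. It stayed at 0.0879 CPM in the A828V library on sucrose and at 75.4 to 102 CPM in the wild type on xylan, and in the authors' deposited table for strains without carbon it was lower in A828V than in the wild type by 10.07 on the log2 scale (authors' value -10.07). Its overlapping neighbour NCU09969 had 0 counts in all A828V libraries and 132 over the deletion libraries, at least 53.0-fold lower in A828V; the counting did not necessarily separate reads of the overlap.

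The other large falls included genes of small-molecule metabolism. The oxidoreductase gene NCU00260 read 50.3, 64.4 and 49.2 CPM against 725, 881, 1243 and 746 CPM (-4.04 ± 0.35, adjusted p = 0.000162). The reductase gene NCU08943 read 13.9, 19.8 and 17.8 CPM against 367, 247, 512 and 200.4 CPM (-4.27 ± 0.40, adjusted p = 0.000268). The 2-methylcitrate synthase gene tca-2, for propionate breakdown, read 4.82, 15.9 and 6.01 CPM against 128, 157, 165 and 324 CPM (-4.44 ± 0.58, adjusted p = 0.00178). NCU09416, annotated as a cellulose-binding lipase or acylhydrolase (-5.85 ± 0.80, adjusted p = 0.00225), and NCU09498, without known function (-4.42 ± 0.66, adjusted p = 0.00388), kept their calls in all 16 alternative fits, as did the 3 before them. The falls of NCU04169 (-4.89), NCU06991 (-4.75), NCU03416 (-4.45), NCU02485 (-4.31), NCU00520 (-4.19) and NCU09415 (-4.17) had adjusted p between 0.0177 and 0.0469, and each was lost without any one of the A828V libraries. The last 4 were also lost without deletion library 3, NCU02485 without deletion library 1 and NCU00520 without deletion library 4 (adjusted p 0.0521 to 0.189 over these fits).

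Among abundant genes that were lower, the aldehyde dehydrogenase gene NCU03415 read 844, 1022 and 876 CPM against 4016, 10082, 5912 and 5933 CPM (-2.83 ± 0.54, adjusted p = 0.0134), a call lost without any one of the A828V libraries (adjusted p 0.0638 to 0.0749). The carboxylic acid transporter gene NCU01231 (-2.51 ± 0.30, adjusted p = 0.00104) and NCU09326, without known function (-1.98 ± 0.29, adjusted p = 0.00362), kept theirs in all 16 alternative fits.

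The calls were set beside the authors' deposited table for the wild type on xylan against the wild type without carbon, which shares no library with this contrast. Of the genes tested in both, that table called 512 (6.22%) higher and 169 (2.05%) lower on xylan. Of 404 genes higher in A828V and present there, 31 (7.67%) were higher on xylan in the wild type, 71 (17.6%) were lower on xylan and 302 were not called. The 31 were 6.05% of the 512 and the 71 were 42.0% of the 169, against 4.90% of all tested genes that were higher in A828V. By both shares the 31 were near the level over all genes (7.67% against 6.22%, and 6.05% against 4.90%), so their number does not set them apart. Of 316 genes lower in A828V, 88 (27.8%) were higher on xylan in the wild type, 17.2% of the 512, and 228 were not called; none was called lower on xylan.

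The 31 genes that were higher in starved A828V although xylan raised them in the wild type had a median difference of 4.74, against 2.23 for the 71 that xylan lowered. Of the 31, 14 stood in the gene lists: all 4 beta-xylosidases, 4 side-chain enzymes, 3 pentose enzymes, 2 xylanases and cdt-2. Of all 419 higher genes 33 stood in these lists, which were chosen with earlier results known, and of the 71 genes 8 did. In the authors' deposited table gh10-2 was 7.26 and xr 9.31 higher on xylan on the log2 scale. Of the 71, 3 were conidiation genes, among them con-6, which was lower on xylan in the authors' table by 6.26 (authors' value -6.26). The 88 genes lower in A828V and higher on xylan in the wild type included 6 sugar transporters, 6 cytosolic ribosomal protein genes, 2 pectin and galacturonate genes and NCU00643.

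**Figure D5:**
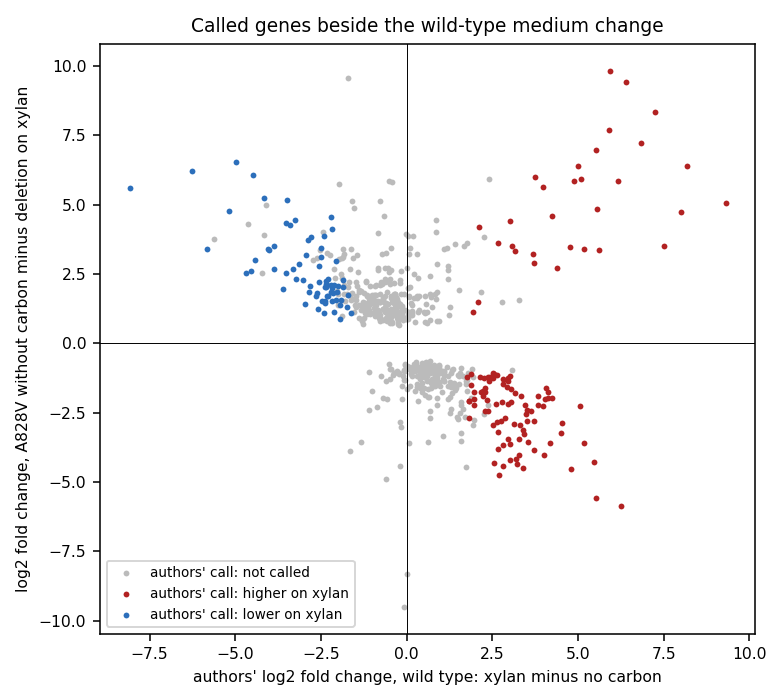
Log2 difference of each called gene, A828V without carbon minus deletion on xylan (vertical axis), against the authors' log2 fold change in the wild type, xylan minus no carbon (horizontal axis), 1 point per gene. Red genes were higher and blue genes lower on xylan in the authors' table; red genes fall into the upper right, 31 genes led by gh11-2, and the lower right, 88 genes, while all 71 blue genes lie in the upper left.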

How the data were processed

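RNA-seq was measured in 11 libraries, of which 7 form the comparison. RNA was purified by phenol-chloroform extraction and DNase treatment, per the labels' protocols, and libraries followed Illumina protocols. Per the submitters' processing notes, the tools were TopHat2 2.04, HTSeq 0.6, Cufflinks 2.02 and Cuffdiff 2.02; settings, strand use and genome build: not given in the sources used here. Thus overlapping or antisense genes and near-identical copies may share reads. The authors' deposited tables hold raw counts for 9758 genes and FPKM per library, and their comparison tables hold log2 fold changes and adjusted p-values, per the file headers. The 5 entries per table that name no gene were left out (6.34% to 29.6% of all counts), and 12 columns of single libraries in the comparison tables were not used. Coordinates follow the deposited tables and count from 1; symbols are from RefSeq and product names from the authors' tables.

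Counts were tested with edgeR 4.0.16 (R 4.3.3): TMM factors, filterByExpr with a count minimum of 10, 1 quasi-likelihood fit over all 11 libraries, 2-sided F-test, Benjamini-Hochberg adjustment over 8557 genes, calls at an adjusted p under 0.05. The fit was also run on simulated counts drawn with the same spread in every group. The A828V libraries were more alike than the deletion libraries, so that run cannot show how well the fit holds for these data. SE and 95% intervals are from that fit. Floors use 3 counts over a group, and counting intervals are exact; both cover counting error only. Alternatives were RLE factors, DESeq2 1.42.0, no filter, the 7 libraries alone, voom weights by group and log2(FPKM + pseudocount) of 1 or 0.1 in limma 3.58.1, the replicate number as a block, and leaving out each library. Members and gene lists were chosen with earlier results of these data known.

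Genes were named by this rule: xlr-1, his-3 and mating genes; the 15 largest rises and falls among calls at 10 CPM or more without overlap; the 10 most abundant calls in each direction; every xylanase, beta-xylosidase, side-chain, pentose and regulator gene; of other lists, the 3 most abundant members and the 2 largest calls each way; and xylan, pentose and transporter genes with an interval within 2-fold. Some genes that it names are covered by their list's counts. Others, most of them marked so in the text, were chosen after their values were seen.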

Additional observations from a re-analysis of the deposited data

Results flagged for a closer look

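In the 4 deletion libraries, a value was marked where 1 library stood apart from the other 3 by more than Dixon's 95% critical value for its gap over the range. The 3 A828V libraries are too few for this check. For independent, normally distributed values chance marks about 1 in 20 groups. The check used CPM without logs, the genes share the same 4 libraries and some were chosen after their values were seen. That rate is therefore no measure for the number marked here. Of the 105 genes checked, 22 were marked, along with 1 property of the libraries. Deletion library 1 stood apart in 14, library 4 in 6, library 2 in 2 and library 3 in 1.

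Deletion library 1 was the highest of the 4 for several transporter and enzyme genes. It read 12854 CPM for hgt-1 (the others 2889 to 3479), 3115 CPM for the transporter gene NCU05627 (585 to 764) and 1545 CPM for the beta-glucosidase gene gh3-3 (217 to 427). Both genes of ATP citrate lyase, the source of acetyl-CoA for fatty acids, read 1876 CPM (NCU06783, others 72.0 to 153) and 1779.5 CPM (NCU06785, others 50.2 to 221) there, against 208 to 241 and 307 to 344 CPM in A828V. Wild-type library 1 on xylan was likewise the highest of its 3, at 2101 and 1807 CPM. The xylanase genes gh11-1 (5.64 CPM, others 3.08 to 3.30) and gh10-1 (1.05 CPM, others 0 to 0.0907) were also highest in it, at low levels. So were the transporter gene NCU06384 (84.7 CPM, others 1.45 to 2.76), NCU02485 (279.9 CPM, others 19.1 to 44.3), NCU06991 (182 CPM, others 19.2 to 27.0), NCU09415 (206 CPM, others 11.8 to 27.5), NCU09498 (198 CPM, others 50.8 to 67.9) and NCU03011 (1.45 CPM, others 0.0746 to 0.181). For the metalloprotease gene NCU07200 the library was the lowest, at 70.0 CPM (others 428 to 492).

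Deletion library 4 had 1571 genes at 0 counts (others 801 to 913). It read 19016 CPM for gdh-1, a catabolic glutamate dehydrogenase gene, against 1186 to 1276 CPM in the others and 2648 to 3761 CPM in A828V. It was also the highest for the leucine breakdown genes NCU02126 (777 CPM, others 120.2 to 188) and NCU02127 (1639 CPM, others 102 to 311) and for ccg-6 (4558 CPM, others 3684 to 3829). For the feruloyl esterase gene NCU09491 it was the lowest (1.74 CPM, others 4.43 to 4.99). Deletion library 2 was the lowest for NCU05897 (2312 CPM, others 6946 to 7084) and the highest for NCU03416 (207 CPM, others 7.90 to 36.3), and library 3 was the highest for gh3-1 (14.7 CPM, others 9.88 to 10.6).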

How the results depend on the processing

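The 419 higher and 325 lower genes became 766 and 851 with DESeq2, 703 and 562 with voom weights by group, 653 and 152 on log2(FPKM + 1), 488 and 131 on log2(FPKM + 0.1) and 740 and 169 without its filter; the share of higher genes was 56.3% in the main test and 78.8% to 81.4% on FPKM, where the median of all genes moved to 0.13 to 0.19. RLE factors gave 422 and 305, no filter 381 and 286, and the 7 libraries alone 412 and 267. Leaving out 1 library gave 139 to 571 higher and 46 to 561 lower genes, and 47 to 83 of the 85 called genes that the naming rule took kept theirs. Of the calls, 121 higher and 46 lower remained in all 16 alternatives. The 11 xylan degradation and 3 pentose genes called higher became 9 to 13 and 3. Same-numbered libraries of the 2 groups did not deviate together (correlations -0.08, -0.11 and -0.03), nor did each correlate best with its own number, so these groups were not taken as paired, although those of the wild type and deletion on xylan did (0.64, 0.26 and 0.25). With the replicate block, 392 genes were higher and 241 lower. Among the genes of the text that were tested, signs turned for 5 that were not called. With voom weights, gdh-1, NCU06783 and NCU06785 read 0.39, 0.20 and 0.67; on log2(FPKM + 1), filtered or not, 0.56, 0.53 and 0.98, with clr-2 at 0.006; on log2(FPKM + 0.1), 0.56, 0.55, 0.998 and 0.026; with the block, 1.43, 0.75, 1.25 and 0.15, and wc-1 at 0.07. Leaving out 1 library gave, from without deletion library 2 to without deletion library 4, -1.13 to 1.40 for gdh-1, -0.51 to 0.15 for clr-2 and -0.59 to 0.05 for wc-1, and, from without deletion library 2 to without library 1, -1.62 to 1.18 for NCU06783 and -1.11 to 1.43 for NCU06785; their main values were -0.79 (gdh-1), -1.25 (NCU06783), -0.73 (NCU06785), -0.30 (clr-2) and -0.36 (wc-1). The cause of these changes was not tested. Over the other alternatives, 156 gene values lost their call and 28 gained one. Counts near 0 limit the folds of matA-1, NCU07224, NCU09968 and NCU09969.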

Other observations

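Of 7802 pairs of adjacent tested genes on the contigs of the deposited tables, 74 were both higher in A828V without carbon and 35 both lower. The next gene was also higher for 74 of 373 higher genes (19.8%), against 4.90% higher among all tested genes, and also lower for 35 of 292 lower genes, against 3.80%. The genes of these runs given here were chosen after their values were seen. Beside gh11-2, both neighbours NCU07226 and NCU07224 were higher, with single counts over the 4 deletion libraries for each. NCU07226 was weak, at 0.803, 0.765 and 1.31 CPM in A828V, and its 53 counts there against 1 gave a ratio of 44.0 with a 95% counting interval of 7.56 to 1770. Its call was lost without A828V library 3 (adjusted p = 0.061) and on unfiltered FPKM. The monooxygenase gene NCU07055, the cytochrome P450 gene NCU10344, the sugar transporter gene NCU07054 and the aldehyde dehydrogenase gene NCU07053 formed a run of 4 that was higher by 3.62, 4.46, 3.25 and 3.18 on the log2 scale. All 4 were under 30 CPM in every library of the comparison, and the calls of the first 3 were lost without any one of the A828V libraries or deletion library 3, that of NCU07055 also without deletion library 2 or 4 and that of NCU07054 also without deletion library 2 (adjusted p 0.0572 to 0.149). The transporter gene NCU08152 and its neighbour NCU08153, a phosphodiesterase gene by annotation, were both higher (3.39 and 3.18). The call of NCU08153 was lost without A828V library 3 (adjusted p = 0.051).

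Pairs for the breakdown of short and branched acids were lower. The 2-methylisocitrate lyase gene NCU02481, beside tca-2 and acting after it in propionate use, read 11.4, 29.0 and 10.4 CPM in A828V against 212, 175, 183 and 237 CPM in the deletion (-3.57 ± 0.59, adjusted p = 0.00688 in edgeR). The leucine breakdown genes NCU02126, for isovaleryl-CoA dehydrogenase, and NCU02127, for a subunit of methylcrotonoyl-CoA carboxylase, differed by -3.57 ± 0.72 and -3.88 ± 0.98 (adjusted p 0.0167 and 0.0375), with deletion library 4 highest in both, at 777 and 1639 CPM. Both calls were lost without any one of the A828V libraries, and that of NCU02127 also without deletion library 3 (adjusted p 0.0523 to 0.158), on the 7 libraries alone and on FPKM.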
